A study of Mus musculus with 13 samples.

Results

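The genes described here encode collagens, laminins, tissue inhibitors of metalloproteinases (TIMPs) and matrix metalloproteinases (MMPs), the core of the extracellular matrix and of the machinery that turns it over. They were taken by name alone: every gene whose symbol is Col, a number, a and a number, or Lama, Lamb, Lamc, Timp or Mmp followed by a number, with a probe set that carries a single gene symbol. This gave 80 of the 19938 genes on the array: 11 fibril-forming collagen chains, 9 fibril-associated chains, 6 chains of collagen IV, 18 other collagen chains, 10 laminin chains, 4 TIMPs and 22 MMPs. Of the 80, 72 passed the filter on dim genes and were tested, and Col6a3, Lama3, Mmp1a, Mmp3, Mmp8, Mmp13, Mmp20 and Mmp25 lay below it.

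The livers came from mice aged 14 days, and their RNA was hybridised to 13 Affymetrix arrays in 5 groups. The animals carried combinations of Rb1 with exon 19 between loxP sites, functional Rb1 and the N750F allele of Rb1, and the Cre transgene used the albumin promoter, so that it acts in hepatocytes. Livers were taken 24 h after 1 intraperitoneal injection of diethylnitrosamine (DEN), a carcinogen that hepatocytes convert to a DNA-alkylating agent, at 20 mg/kg, or after saline. The untreated wild type group (2 arrays) had floxed Rb1 without Cre and received saline. The wild type DEN group (2 arrays) had the same genotype and received DEN. The heterozygous DEN group (2 arrays) had 1 functional and 1 floxed allele with Cre, and a second label of these mice reads LOH. The N750F DEN group (5 arrays) is labelled only as the mutant, without its other allele or a statement on Cre. The knockout-labelled DEN group (2 arrays) had floxed Rb1 with Cre. In the groups labelled with Cre, a Cre limited to hepatocytes leaves floxed Rb1 in place in stellate and endothelial cells. For the N750F group the labels do not say which cells hold functional Rb1. Saline-treated mutants were not analysed here. The labels do not say that the arrays of a group came from separate mice, so a p-value here measures only the spread among the arrays, which may be technical.

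The matrix of a healthy liver is sparse. Collagens I and III form fibrils around portal tracts and central veins, collagen IV and laminins lie along vessels, bile ducts and, loosely, in the space between sinusoids and hepatocytes, and collagen XIV coats fibril surfaces. Hepatic stellate cells and portal fibroblasts produce most of the fibrillar chains, and endothelial cells contribute to collagen IV and laminins. MMPs cleave matrix proteins, TIMPs block MMPs, and the balance between them decides how much matrix persists after injury, when stellate cells turn into collagen-producing myofibroblasts. In whole liver RNA, fewer cells of a type and less RNA per cell cannot be told apart.

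The promoters of Col3a1 and Col1a2 are shown because these 2 fibrillar chains had their lowest level in the same array and differed most between N750F and wild type livers after DEN. They are the 250 bases before the annotated start of each gene, from RefSeq on build GRCm38.p6, for Col3a1 at chr1:45311288-45311537 on the plus strand and for Col1a2 at chr6:4505368-4505617 on the plus strand. Capitals mark matches, on either strand, to CCAAT (bound by NF-Y), TATAAA (the TATA box), GGGCGG (a GC box, bound by Sp1) and CAGACA (a core of the SMAD-binding CAGA box), with TGTCTG standing for CAGACA on the opposite strand.
Col3a1: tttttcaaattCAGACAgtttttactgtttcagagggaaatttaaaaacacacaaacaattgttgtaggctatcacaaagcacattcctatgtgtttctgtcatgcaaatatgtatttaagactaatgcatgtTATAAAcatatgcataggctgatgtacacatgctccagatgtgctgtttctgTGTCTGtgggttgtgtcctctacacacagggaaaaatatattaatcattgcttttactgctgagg
Col1a2: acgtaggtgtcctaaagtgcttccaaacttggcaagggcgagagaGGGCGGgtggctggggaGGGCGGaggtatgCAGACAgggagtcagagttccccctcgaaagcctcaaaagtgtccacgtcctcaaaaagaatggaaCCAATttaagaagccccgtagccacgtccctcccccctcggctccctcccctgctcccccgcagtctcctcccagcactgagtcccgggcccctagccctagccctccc
Counted back from the start, the Col3a1 promoter held TATAAA at bases 117 to 112, CAGACA at bases 239 to 234 and, on the opposite strand, at bases 65 to 60. In the Col1a2 promoter CCAAT was at bases 109 to 105, GGGCGG at bases 205 to 200 and 188 to 183, and CAGACA at bases 175 to 170, and no match overlapped another. Promoter entries were found for 61 of the 80 genes, with 68 promoters between them. CAGACA was present in 16 of these 68 promoters (23.5%) and in 17.1% of all 32851 promoters of this length, TATAAA in 13 (19.1%) and 12.4%, CCAAT in 20 (29.4%) and 33.8%, and GGGCGG in 32 (47.1%) and 32.7%. These are matches of letters and not sites of binding. The annotated starts of Col4a1 and Col4a2, which lie head to head on opposite strands, were 21 bases apart.

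Levels are log2 of the quantile-normalized intensity plus 16, and the levels of different genes are not compared because their probes differ. Changes are log2 differences ± SE from a limma model over all arrays with a term for array batch, in which 9 arrays belong to the first run named in the labels and 4 to the second (wild type DEN array 4, heterozygous DEN array 4, and N750F DEN arrays 4 and 5). A gene is called higher or lower where the limma p adjusted by Benjamini-Hochberg over 14953 genes is under 0.05. The batch term alone called 2187 genes. The targeted gene, Rb1, had levels of 7.27 and 7.15 in untreated wild type, 8.04 and 8.01 in wild type DEN livers, 7.92 and 7.62 in heterozygous DEN, 7.82 to 8.43 in N750F DEN, and 7.92 and 6.57 in knockout-labelled DEN livers. Only the second of the knockout-labelled arrays was therefore below the other DEN arrays, and whether the probe set covers the floxed exon is not given in the sources used here. That same array had a mean level of 8.35 over 12 skeletal muscle genes, against 5.85 to 6.09 in the other arrays. By Y-linked genes and Xist, the untreated pair was 1 male and 1 female, the wild type DEN pair female, the heterozygous and knockout-labelled pairs male, and the N750F group 1 male and 4 females.

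Of the 72 matrix genes, 3 were called in at least 1 of the 10 comparisons made 24 h after injection. Col14a1, which coats collagen fibrils, fell in heterozygous DEN livers against untreated livers and was higher in N750F than in heterozygous livers. Col3a1, the chain of fibrillar collagen III, was higher in N750F than in wild type livers after DEN. Col4a2, a chain of the main basement membrane collagen, was higher in N750F than in heterozygous livers after DEN. With the replicate number as a block in place of batch, 0 of these 4 differences passed the threshold (adjusted p from 0.0896 to 0.539). In an F test for any difference among the 5 groups, Col14a1 was the only one of the 72 genes called (adjusted p = 0.0172), where 2.89% of all genes tested were. At an unadjusted p under 0.05 in that test there were 13 of the 72 (18.1%), against 19.7% of all genes.

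The calls in each comparison were read against all genes. For DEN in wild type, 0 of 72 matrix genes were called by limma, with 0.689% of all genes called. At an unadjusted p under 0.05 there were 5 (6.94%), all lower, against 13.7% of all genes. Heterozygous DEN livers against untreated livers gave 1 of 72 called lower, against 0.729% of all genes lower and 1.4% in either direction. The unadjusted p was under 0.05 for 5 (6.94%), against 15.6%. N750F DEN livers against untreated livers gave 0 of 72, although 6.21% of all genes were called, and 6 at an unadjusted p under 0.05 (8.33%), against 22.2%. Knockout-labelled DEN livers against untreated gave 0 of 72, against 0.0869%, and 3 at an unadjusted p under 0.05 (4.17%), against 9.48%. In all 4 comparisons with untreated livers the share of matrix genes at an unadjusted p under 0.05 was below that of all genes, and this difference was not tested.

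After DEN, heterozygous against wild type livers gave 0 of 72, against 0.00669%, and 6 at an unadjusted p under 0.05 (8.33%), against 6.88%. N750F against wild type gave 1 of 72 higher, against 1.13% of all genes higher and 1.42% in either direction, and 9 at an unadjusted p under 0.05 (12.5%), against 14.7%. Knockout-labelled against wild type gave 0 of 72, against 0.0468%, and 3 at an unadjusted p under 0.05 (4.17%), against 8.55%. N750F against heterozygous gave 2 of 72 higher, against 1.3% higher and 1.64% in either direction. There 16 genes (22.2%) had an unadjusted p under 0.05, 14 of them higher in N750F, against 11.2% of all genes. Knockout-labelled against heterozygous gave 0 of 72, against 0.301%, and 8 at an unadjusted p under 0.05 (11.1%), against 9.62%. For N750F against knockout-labelled livers 0 of 72 were called, as were 0% of all genes, and 7 had an unadjusted p under 0.05 (9.72%), against 12.2%. These comparisons share groups and are not independent of each other.

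Arrays that did not overlap between groups gave a further count. Between N750F and heterozygous livers this held for 12 genes higher (16.7%) and 3 lower (4.17%) in N750F, where 6.43% and 5.59% of all genes did so. In heterozygous DEN livers 33 genes (45.8%) lay below both untreated arrays and 5 (6.94%) above, against 26.6% and 17.2% of all genes. In wild type DEN livers 21 genes (29.2%) lay below and 2 (2.78%) above, against 23.5% and 17.4%. Between knockout-labelled and heterozygous livers 24 genes (33.3%) lay higher and 13 (18.1%) lower, against 18.8% and 14.1%. The medians over the 72 genes stayed near 0. The largest in size was -0.20 in heterozygous DEN against untreated livers, with -0.04 over all genes, followed by 0.10 in knockout-labelled against heterozygous livers, with 0.00 over all genes.

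**Figure D1:**
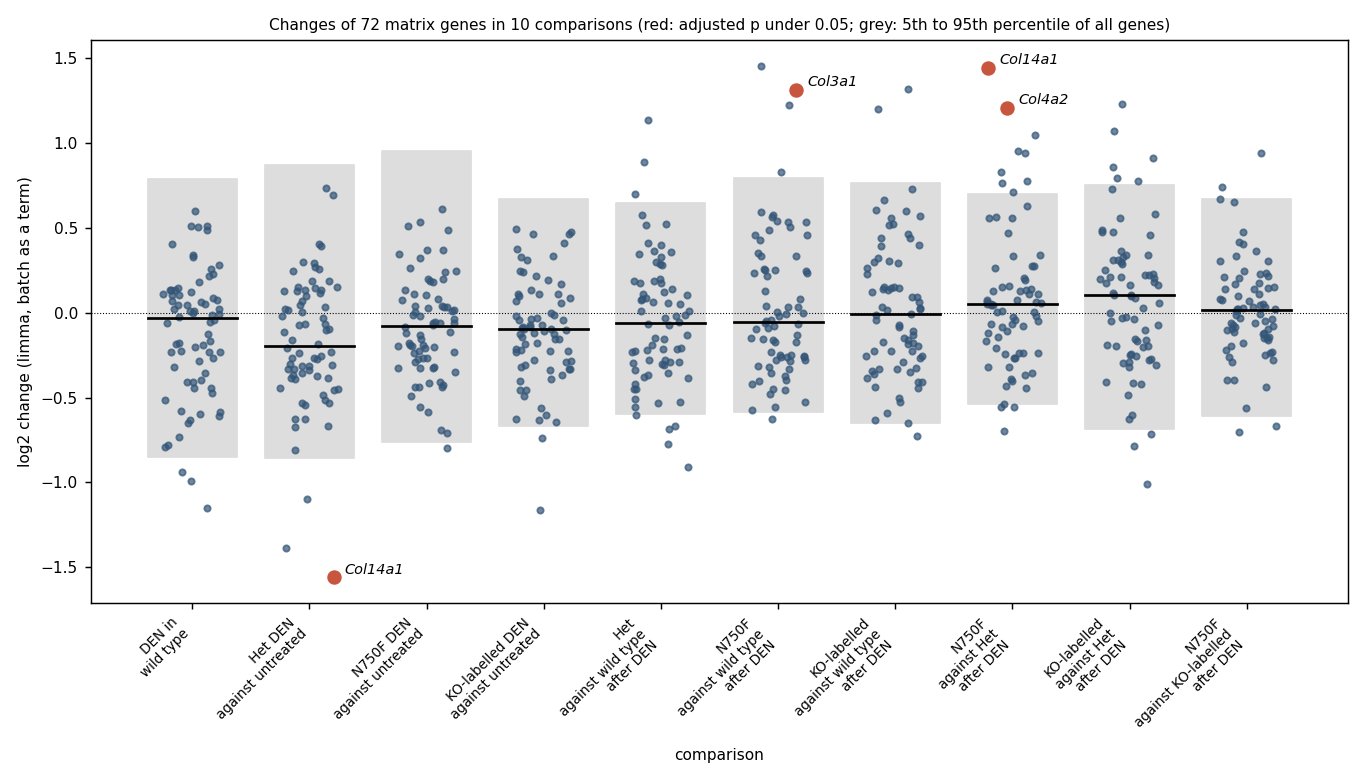
Log2 change of the 72 tested matrix genes (points) in each of the 10 comparisons (KO-labelled, knockout-labelled; Het, heterozygous), from the limma model with a batch term. Red points are called at an adjusted p under 0.05, black lines are medians over the 72 genes and grey boxes run from the 5th to the 95th percentile of all 14953 genes. The 4 red points are Col14a1 (-1.56 and 1.44), Col3a1 (1.31) and Col4a2 (1.20), and most other points lie inside the grey boxes.

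Parts of these shifts followed the arrays. Heterozygous DEN array 4 held the lowest value of all 13 arrays for 19 of the 72 genes (26.4%), against 14.7% of all genes tested. N750F DEN array 4 did so for 19 (26.4%), against 15.6%, and wild type DEN array 4 for 15 (20.8%), against 17.4%. All 3 belong to the second run, whose remaining array, N750F DEN array 5, was lowest for 3 (4.17%), against 5.30%. At the other end, untreated array 2 held the highest value for 12 genes (16.7%), against 7.80% of all genes, and untreated array 1 for 6 (8.33%), against 9.99%. The map of deviations shows the 3 low arrays as blue columns, with different genes low in each.

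**Figure D2:**
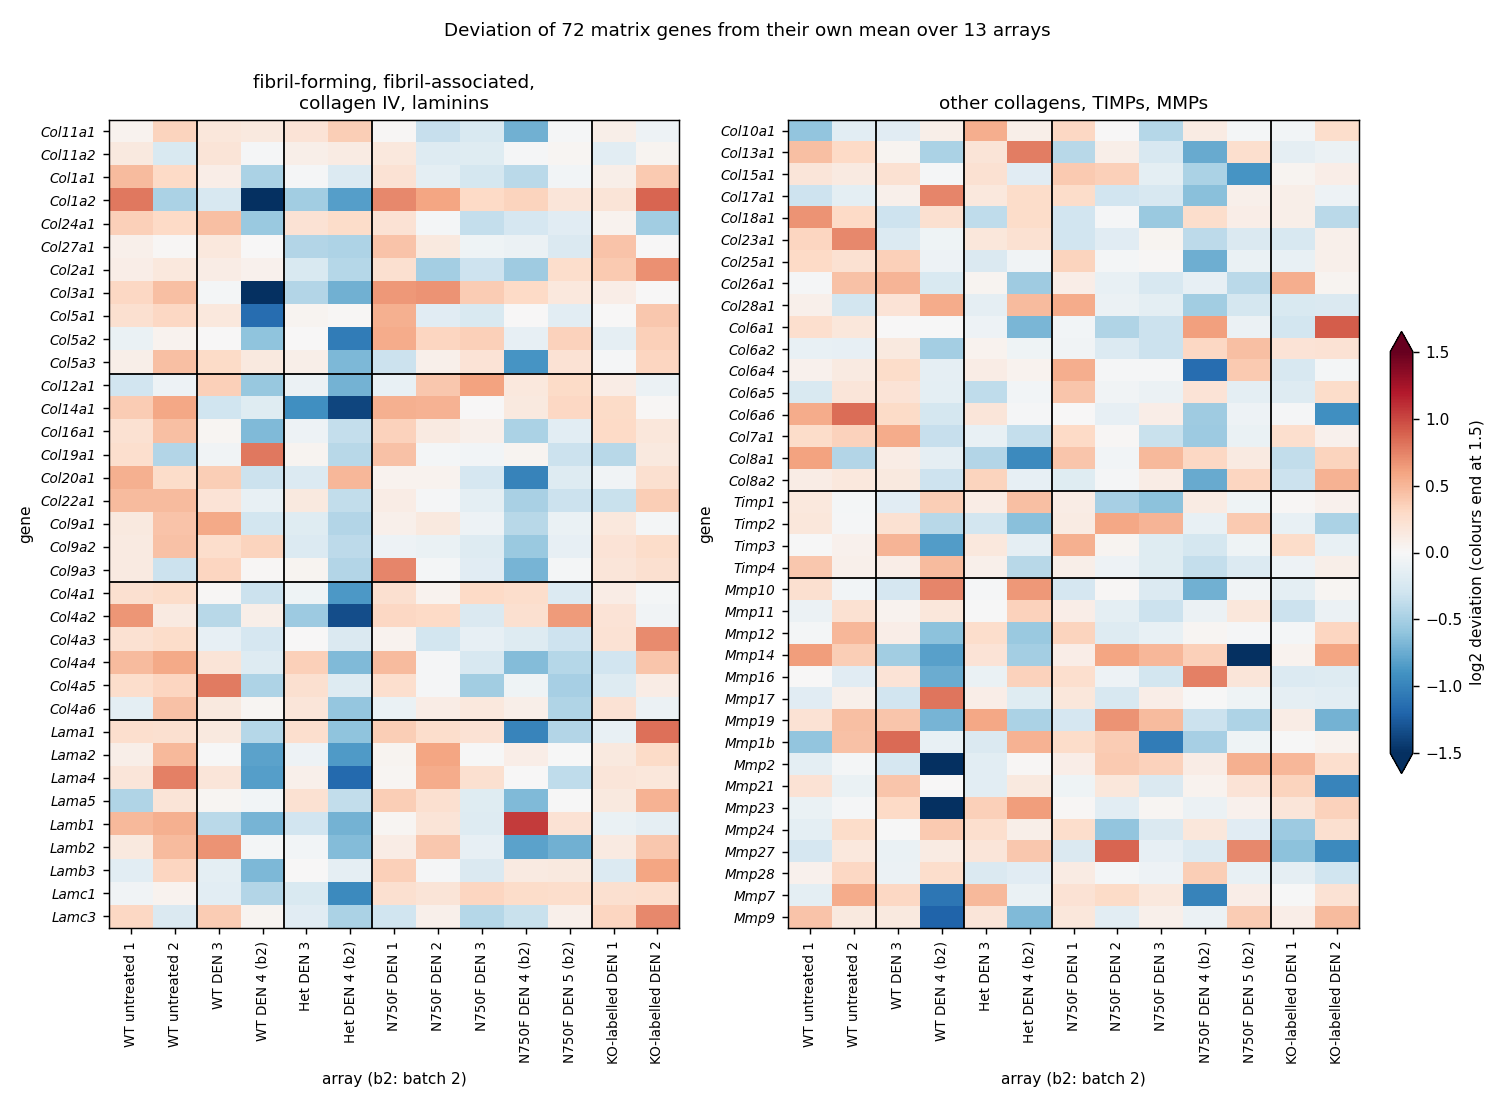
Deviation of each of the 72 matrix genes (rows, grouped by role) from its own mean over the 13 arrays (columns, grouped by genotype and treatment; b2 marks the second run), in log2 units with colours ending at 1.5. Col14a1 is low in both heterozygous arrays, whereas Col1a2, Col3a1, Col5a1, Mmp2 and Mmp23 are low in wild type DEN array 4.

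Among the fibril-forming chains, Col3a1 was the only one of 11 called. Its levels were 9.85 and 9.99 in untreated livers, 9.51 and 7.68 in wild type DEN livers, 9.10 and 8.81 in heterozygous DEN, 10.19, 10.22, 9.92, 9.84 and 9.70 in N750F DEN, and 9.64 and 9.54 in knockout-labelled DEN livers. Every N750F array was above every other DEN array, and wild type DEN array 4 was far below its partner. Col3a1 was 2.48-fold higher in N750F than in wild type livers after DEN (1.31 ± 0.28, 95% interval 0.71 to 1.92, limma adjusted p = 0.0365). The difference was 0.60 within the first run and 2.09 within the second. Without wild type DEN array 4 it was 0.59 (adjusted p = 0.901), and without wild type DEN array 3 it was 2.10 (adjusted p = 0.00284). The call was also lost, at similar sizes from 1.22 to 1.32 and adjusted p from 0.0522 to 0.0901, without N750F array 1, 2, 4 or 5, either heterozygous array or either untreated array. Against heterozygous livers the N750F difference was 0.95 ± 0.28 (adjusted p = 0.155).

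Col1a2 and Col1a1 encode the paired chains of collagen I, the main fibril of scar tissue. Col1a2 was at 9.96 and 8.69 in untreated livers, 8.93 and 7.24 in wild type DEN livers, 8.64 and 8.34 in heterozygous DEN, 9.89, 9.76, 9.47, 9.50 and 9.35 in N750F DEN, and 9.36 and 10.04 in knockout-labelled DEN livers. The N750F arrays were all above the wild type and heterozygous DEN arrays, and all lay between the 2 untreated arrays. The N750F difference from wild type DEN was 1.45 ± 0.36 (adjusted p = 0.0641) and that of knockout-labelled livers 1.31 ± 0.45 (adjusted p = 0.426). Col1a1 had group means of 7.97 ± 0.12 (SD, n = 2) in untreated, 7.39 ± 0.41 (n = 2) in wild type DEN livers, 7.47 ± 0.13 (n = 2) in heterozygous DEN, 7.45 ± 0.23 (n = 5) in N750F DEN and 7.82 ± 0.21 (n = 2) in knockout-labelled DEN livers. The higher Col1a2 values of the N750F arrays therefore had no counterpart in Col1a1, whose N750F mean was within the SD of wild type DEN.

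Collagen V is a minor component that sets the diameter of collagen I fibrils. Col5a1 was at 6.09 in wild type DEN array 4 and between 7.00 and 7.76 in the other 12 arrays. Col5a2 had means of 6.23 ± 0.10 (SD, n = 2) in untreated, 5.95 ± 0.43 (n = 2) in wild type DEN livers, 5.73 ± 0.74 (n = 2) in heterozygous DEN, 6.55 ± 0.25 (n = 5) in N750F DEN and 6.36 ± 0.34 (n = 2) in knockout-labelled livers. Its N750F difference was 0.76 ± 0.23 from heterozygous (adjusted p = 0.173) and 0.54 ± 0.23 from wild type DEN livers (adjusted p = 0.308), with overlapping arrays in both. In heterozygous against untreated livers the 11 fibril-forming chains had a median change of -0.37, and 8 of them had arrays that did not overlap, all lower, where 26.6% of all genes were lower in this way.

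**Figure D3:**
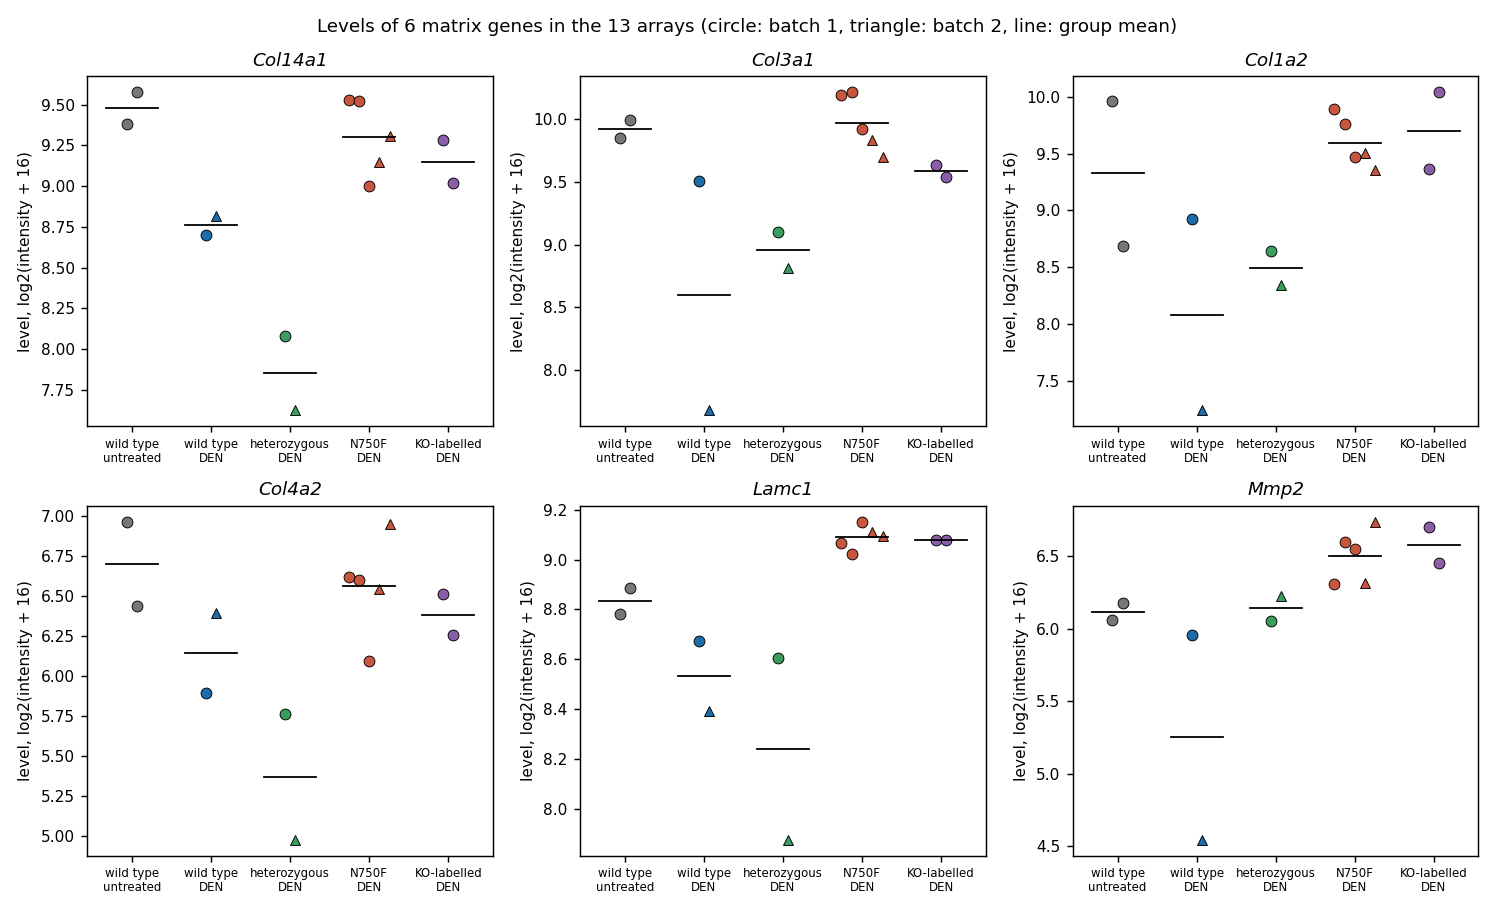
Level, as log2 of intensity plus 16, of Col14a1, Col3a1, Col1a2, Col4a2, Lamc1 and Mmp2 in the 13 arrays (circles, first run; triangles, second run; lines, group means; KO-labelled stands for knockout-labelled). Axes differ between panels and do not start at 0. Heterozygous DEN arrays are lowest for Col14a1 (8.08 and 7.62), and wild type DEN array 4 is lowest for Col3a1 (7.68), Col1a2 (7.24) and Mmp2 (4.55).

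Among the 9 fibril-associated chains, which decorate fibrils and link them to other matrix, Col14a1 carried the clearest difference of all the matrix genes. Its levels were 9.38 and 9.58 in untreated livers, 8.70 and 8.82 in wild type DEN livers, 8.08 and 7.62 in heterozygous DEN, 9.53, 9.53, 9.003, 9.15 and 9.31 in N750F DEN, and 9.28 and 9.02 in knockout-labelled DEN livers. Both heterozygous arrays were below all other arrays, both wild type DEN arrays came next, and the remaining 9 arrays lay between 9.003 and 9.58.

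Col14a1 was 2.94-fold lower in heterozygous DEN than in untreated livers (-1.56 ± 0.27, 95% interval -2.15 to -0.97, limma adjusted p = 0.0162), and the difference within the first run was -1.40. The second run held no untreated array. This call was lost without heterozygous array 3 (-1.80, adjusted p = 0.0626) or 4 (-1.40, adjusted p = 0.138) and without untreated array 1 (-1.65, adjusted p = 0.105) or 2 (-1.46, adjusted p = 0.0827). In N750F livers Col14a1 was 2.71-fold higher than in heterozygous livers (1.44 ± 0.22, 95% interval 0.97 to 1.91, limma adjusted p = 0.00369), with 1.27 within the first run and 1.61 within the second. That call was lost without heterozygous array 4 (1.25, adjusted p = 0.161). With the mean level of Y-linked genes as a covariate it was 1.51 (adjusted p = 0.0625). Knockout-labelled livers differed from heterozygous livers by 1.23 ± 0.27 (adjusted p = 0.102). Wild type DEN livers differed from untreated livers by -0.65 ± 0.27 (adjusted p = 0.313), and heterozygous from wild type DEN livers by -0.91 ± 0.26 (adjusted p = 0.665).

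The other fibril-associated chains had changes between -0.56 and 0.61 in N750F DEN against untreated livers. Heterozygous against untreated livers gave a median of -0.31 over the 9 chains, with 5 of them below both untreated arrays, as were 26.6% of all genes. Between knockout-labelled and heterozygous livers 6 of the 9, Col14a1 included, were higher without overlap, against 18.8% of all genes.

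Collagen IV forms the network of basement membranes, with Col4a1 and Col4a2 as its ubiquitous pair. Col4a2 was at 6.97 and 6.44 in untreated livers, 5.89 and 6.40 in wild type DEN livers, 5.76 and 4.97 in heterozygous DEN, 6.62, 6.61, 6.09, 6.55 and 6.95 in N750F DEN, and 6.51 and 6.26 in knockout-labelled DEN livers. Both heterozygous arrays were below every other array. Col4a2 was 2.31-fold higher in N750F than in heterozygous livers (1.20 ± 0.28, 95% interval 0.60 to 1.81, limma adjusted p = 0.0485), with 0.68 within the first run and 1.77 within the second. Without heterozygous array 4 the difference was 0.65 (adjusted p = 1.00), and without heterozygous array 3 it was 1.81 (adjusted p = 0.0272). Of the 13 fits that left out 1 array, the call held only without heterozygous array 3 and without N750F array 3 (1.31, adjusted p = 0.04). In the other 11 fits the difference was 0.65 to 1.23. In heterozygous against untreated livers the difference was -1.38 ± 0.35 (adjusted p = 0.0710).

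Col4a1, which shares its promoter region with Col4a2, had means of 7.70 ± 0.02 (SD, n = 2) in untreated, 7.29 ± 0.24 (n = 2) in wild type DEN livers, 6.98 ± 0.57 (n = 2) in heterozygous DEN, 7.58 ± 0.21 (n = 5) in N750F DEN and 7.49 ± 0.10 (n = 2) in knockout-labelled livers. Its lowest array was heterozygous DEN array 4, at 6.58, and its N750F difference from heterozygous livers was 0.56 ± 0.21 (adjusted p = 0.324). All 6 collagen IV chains had a negative change in heterozygous against untreated livers, with a median of -0.31, and 5 of them lay below both untreated arrays, against 26.6% of all genes.

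Laminins are cross-shaped trimers of an alpha, a beta and a gamma chain that bind collagen IV networks to cells. Lamc1, the common gamma chain, was at 8.78 and 8.88 in untreated livers, 8.67 and 8.39 in wild type DEN livers, 8.60 and 7.88 in heterozygous DEN, 9.07, 9.02, 9.15, 9.11 and 9.09 in N750F DEN, and 9.08 and 9.08 in knockout-labelled livers. The N750F and knockout-labelled arrays lay in a narrow band above all others. The N750F difference was 0.83 ± 0.20 from heterozygous (adjusted p = 0.0628) and 0.54 ± 0.20 from wild type DEN livers (adjusted p = 0.247). Lamc1 passed the threshold against heterozygous livers in 2 of 23 alternative settings, at a log offset of 50 and with genes under the 50th percentile left out.

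Lamb1, a widespread beta chain, was at 7.83 and 7.87 in untreated livers, 6.94 and 6.64 in wild type DEN livers, 7.05 and 6.63 in heterozygous DEN, and 7.24 and 7.21 in knockout-labelled livers. The N750F arrays spread from 7.15 to 8.39. Lamb1 had the smallest p of the matrix genes for DEN in wild type (-1.15 ± 0.35, adjusted p = 0.163), and was -1.10 ± 0.35 in heterozygous against untreated livers (adjusted p = 0.146). Lamb2, the beta chain of mature vessel laminins, went the other way in N750F livers, with -0.63 ± 0.21 against wild type DEN (adjusted p = 0.188).

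The endothelial alpha chains showed no call. Lama4 had means of 6.77 ± 0.41 (SD, n = 2) in untreated, 5.98 ± 0.72 (n = 2) in wild type DEN livers, 5.76 ± 0.88 (n = 2) in heterozygous DEN, 6.39 ± 0.34 (n = 5) in N750F DEN and 6.48 ± 0.00 (n = 2) in knockout-labelled livers. Its lowest arrays were heterozygous DEN array 4 (5.14) and wild type DEN array 4 (5.47). Lama5 means ran only from 6.96 ± 0.46 (n = 2) in untreated to 7.42 ± 0.27 (n = 2) in knockout-labelled livers. All 9 tested laminin chains had a positive change in knockout-labelled against heterozygous livers, with a median of 0.34, and 6 did not overlap, where 18.8% of all genes were higher in this way.

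Of the other collagens, 17 of 18 were tested. Col18a1, whose C-terminal end is the source of endostatin, was at 8.68 and 8.30 in untreated livers, and every DEN array lay between 7.45 and 8.28. It had the smallest adjusted p of the matrix genes in N750F DEN against untreated livers (-0.80 ± 0.23, adjusted p = 0.0575). Col23a1, a transmembrane collagen, was at 8.85 and 9.24 in untreated livers and at 8.13 to 8.75 in the DEN arrays, and its N750F change was -0.71 ± 0.22 (adjusted p = 0.0686). Both passed the threshold in that comparison at a log offset of 50 and with genes under the 50th percentile left out, and Col18a1 also without either knockout-labelled array. Col6a6, a chain of the microfibril-forming collagen VI, was at 8.28 and 8.55 in untreated and 7.70 and 6.80 in knockout-labelled livers (-1.16 ± 0.30, adjusted p = 0.200). Without knockout-labelled array 1 that change was called, and the array left was the one with skeletal muscle RNA.

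On the side of matrix turnover, 0 of 4 TIMPs and 0 of 16 tested MMPs were called by limma in any comparison, and at an unadjusted p under 0.05 there were 1 TIMP and 4 MMPs in at least 1 comparison. By that rule 30 of the 72 matrix genes (41.7%) and 48.1% of all genes passed. Timp1, the inhibitor that rises in activated stellate cells and in acute injury, had means of 6.03 ± 0.13 (SD, n = 2) in untreated, 6.06 ± 0.38 (n = 2) in wild type DEN livers, 6.25 ± 0.24 (n = 2) in heterozygous DEN, 5.78 ± 0.35 (n = 5) in N750F DEN and 6.01 ± 0.03 (n = 2) in knockout-labelled livers. All 13 arrays lay between 5.35 and 6.42. Timp2, which also helps to activate Mmp2, was higher in N750F livers by 0.71 ± 0.22 than in heterozygous livers (adjusted p = 0.191) and by 0.74 ± 0.23 than in knockout-labelled livers (adjusted p = 0.278), with arrays from 6.04 to 6.74 in N750F, 5.89 and 5.54 in heterozygous, and 6.05 and 5.69 in knockout-labelled livers. Timp3, an inhibitor bound to the matrix, had group means between 7.39 and 7.65, and wild type DEN array 4 was lowest at 6.72.

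Mmp2, a gelatinase made by stellate cells, was at 6.06 and 6.17 in untreated livers, 5.96 and 4.55 in wild type DEN livers, 6.05 and 6.23 in heterozygous DEN, 6.30, 6.60, 6.55, 6.31 and 6.74 in N750F DEN, and 6.70 and 6.45 in knockout-labelled livers. The N750F and knockout-labelled arrays were above all others, and wild type DEN array 4 was below all others by more than 1 log2 unit. The N750F difference from wild type DEN livers was 1.22 ± 0.29 (adjusted p = 0.0569) and that of knockout-labelled livers 1.20 ± 0.36 (adjusted p = 0.344). Mmp2 and Mmp23 passed the threshold against wild type DEN livers when array 4 alone stood for that group, and not when array 3 did. Calls over all genes also rose with array 4 alone and fell with array 3 alone, so this is not particular to these genes.

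Mmp9, the gelatinase of neutrophils and macrophages, was at 5.23 in wild type DEN array 4 and at 5.77 in heterozygous DEN array 4, and from 6.28 to 6.90 in the other 11 arrays. Mmp12, the macrophage elastase, had group means from 7.04 ± 0.51 (SD, n = 2) in wild type DEN to 7.53 ± 0.38 (n = 2) in untreated livers. Mmp14, the membrane-bound activator of Mmp2, was at 8.40 and 8.16 in untreated livers, 7.26 and 6.96 in wild type DEN livers, 7.99 and 7.27 in heterozygous DEN, 7.88, 8.37, 8.28, 8.14 and 6.24 in N750F DEN, and 7.83 and 8.37 in knockout-labelled livers. A single N750F array, the fifth, was lower than all others. Mmp13, the main interstitial collagenase of the mouse, was below the filter, at 4.39 to 5.85. Mmp27 had the largest difference of the MMPs between knockout-labelled and heterozygous livers (-1.01 ± 0.39, adjusted p = 0.408).

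Genes around the matrix were followed in 5 further lists. Of 21 tested genes for collagen processing and crosslinking, Serpinh1, the collagen chaperone HSP47, was the only call in the 10 comparisons, lower in heterozygous DEN than in untreated livers (-1.27 ± 0.28, adjusted p = 0.0447), where 1.4% of all genes were called. Of 30 tested genes for other matrix proteins, 1 was called lower in heterozygous DEN against untreated livers, 1 higher and 1 lower in N750F DEN against untreated, 2 higher in N750F against wild type and 3 higher in N750F against heterozygous livers. Of all genes, 1.4%, 6.21%, 1.42% and 1.64% were called in these 4 comparisons. Nid1, which encodes nidogen, the link between laminin and collagen IV, was at 8.67 and 8.90 in untreated livers, 8.24 and 7.18 in wild type DEN livers, 8.32 and 6.77 in heterozygous DEN, 9.26, 9.50, 9.66, 8.07 and 8.53 in N750F DEN, and 9.45 and 8.70 in knockout-labelled livers. Its arrays of the second run were low in every group that had them, and within each run the N750F arrays were the highest of the DEN groups apart from knockout-labelled array 1. Nid1 was higher in N750F than in heterozygous livers (1.34 ± 0.24, adjusted p = 0.0114, lost without either heterozygous array) and than in wild type livers (1.18 ± 0.24, adjusted p = 0.0317), with overlapping arrays in both. The call against wild type was lost without N750F array 2, 3 or 5 and without either wild type DEN array.

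Elastin (Eln), the core of elastic fibres, was lowest in the same arrays as Col14a1. It was at 5.60 and 5.11 in the heterozygous livers, against 7.37 and 6.62 in untreated livers (-1.69 ± 0.35, adjusted p = 0.0355) and 6.22 to 6.98 in N750F livers (1.25 ± 0.28, adjusted p = 0.0401). Periostin (Postn), a matrix protein that binds collagen, was higher in N750F DEN than in heterozygous livers (1.21 ± 0.28, adjusted p = 0.0435) and than in untreated livers (1.13 ± 0.29, adjusted p = 0.0371, with overlapping arrays). Osteoglycin (Ogn), a small proteoglycan, was higher in N750F than in wild type livers after DEN (1.55 ± 0.33, adjusted p = 0.0353), and Ecm1 was lower in N750F DEN than in untreated livers (-1.48 ± 0.31, adjusted p = 0.0204).

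Of 18 tested matrix receptors, 1 was called higher and 2 lower in N750F DEN against untreated livers, and 2 higher in N750F against wild type livers after DEN, where 6.21% and 1.42% of all genes were called. The integrin chain Itgav rose (1.28 ± 0.28, adjusted p = 0.0226), and the integrin chain Itgb5 (-1.80 ± 0.35, adjusted p = 0.0164) and the syndecan Sdc4 (-1.24 ± 0.35, adjusted p = 0.0491) fell. The hyaluronan receptor Cd44 (1.02 ± 0.22, adjusted p = 0.0399) and Sdc1 (1.39 ± 0.30, adjusted p = 0.0394) were the 2 higher than in wild type DEN livers. Of 19 tested other proteases and inhibitors, A2m, which encodes a broad protease inhibitor of plasma, was lower in heterozygous DEN than in untreated livers (-2.98 ± 0.54, adjusted p = 0.0186) and in wild type DEN (-2.62 ± 0.54, adjusted p = 0.0432), and higher in N750F than in heterozygous livers (2.16 ± 0.43, adjusted p = 0.0195), with 1.4%, 0.689% and 1.64% of all genes called in these comparisons. The cysteine protease Ctss was higher in N750F than in wild type (1.02 ± 0.20, adjusted p = 0.0223) and heterozygous livers (0.93 ± 0.20, adjusted p = 0.0291), against 1.42% and 1.64% of all genes called. Of 22 tested genes of TGF-beta signalling, the main inducer of collagen in stellate cells, Smad2 was called higher in N750F DEN against untreated livers (1.35 ± 0.30, adjusted p = 0.0241) and no other gene in any comparison, where 6.21% of all genes were called against untreated livers. Each call of these 5 lists was lost without at least 1 of the arrays, and A2m fell below the filter without some. For the other genes the call was kept in 2 of 13 such fits (Sdc4) to 12 of 13 (Itgb5).

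**Figure D4:**
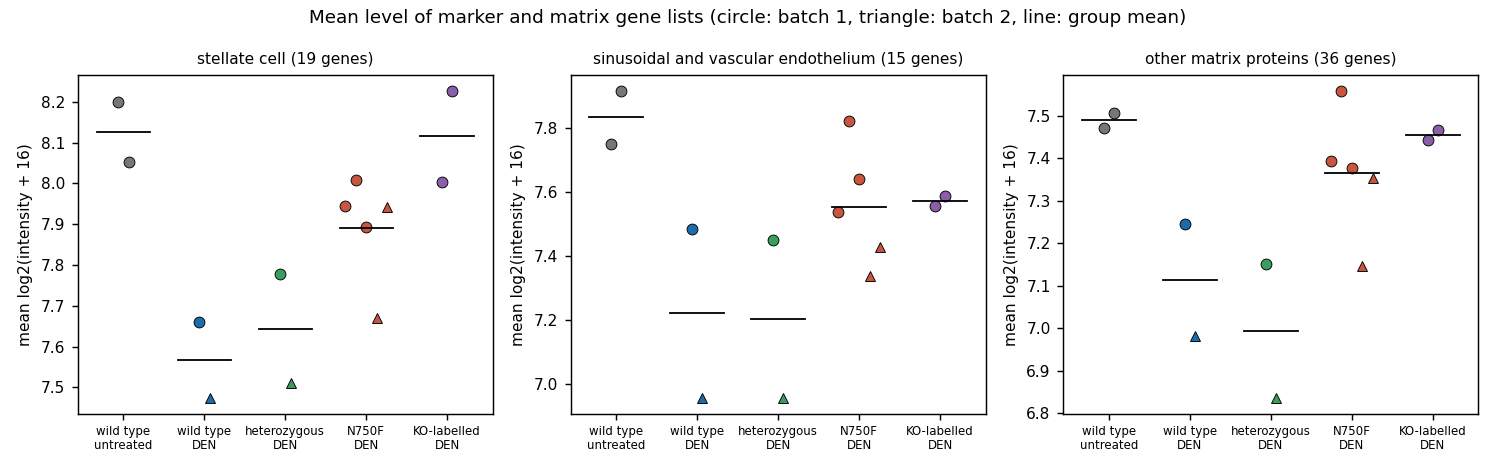
Mean level, as log2 of intensity plus 16, of the measured genes of 3 lists in each array (circles, first run; triangles, second run; lines, group means; KO-labelled stands for knockout-labelled). Axes differ between panels and do not start at 0. Stellate cell genes are at 8.20 and 8.05 in untreated livers and at 7.66 and 7.47 in wild type DEN livers, and endothelial genes are lowest, at 6.96 and 6.95, in wild type and heterozygous DEN array 4.

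Markers of the cells that make matrix moved with several of these differences, as did those of some other cells. Their part in the results was not tested. The 7 erythroid genes had means of 7.39 and 7.47 in untreated, 7.03 and 6.85 in wild type DEN and 7.16 and 7.06 in heterozygous DEN livers. The 14 neutrophil genes were at 6.20 and 6.10, 5.66 and 5.66, and 5.78 and 5.72 in the same groups. The 7 cholangiocyte genes overlapped between untreated livers and both of these DEN groups. The mean over 19 stellate cell genes, among them Lrat, Des, Reln and Pdgfrb, was 8.20 and 8.05 in untreated livers, 7.66 and 7.47 in wild type DEN livers, 7.78 and 7.51 in heterozygous DEN, 7.67 to 8.01 in N750F DEN, and 8.00 and 8.23 in knockout-labelled livers. The wild type, heterozygous and N750F DEN arrays were all below both untreated arrays, the closest N750F array at 8.01 against 8.05. Col14a1, Eln and Col4a2 lay below both untreated arrays in the wild type and heterozygous DEN livers and overlapped them in N750F livers. These levels are not adjusted for batch, and a link between them was not tested. Of the 17 tested, Reln was called lower in heterozygous DEN against untreated livers (-1.71 ± 0.35, adjusted p = 0.0342), and Bmp5 higher in N750F DEN against untreated livers (1.03 ± 0.22, adjusted p = 0.0209). Of all genes, 1.4% and 6.21% were called in these comparisons, and no other of the 17 was called in any comparison. Reln stayed called in 8 and Bmp5 in 10 of 13 fits that left out 1 array. Lrat, which stores vitamin A in quiescent stellate cells, lay between 7.67 and 8.74 in all arrays. Acta2, the actin of activated myofibroblasts, was at 7.05 and 6.49 in untreated livers and at 6.00 to 7.19 in the DEN arrays.

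The endothelial list of 15 genes had means of 7.75 and 7.92 in untreated livers, 7.48 and 6.96 in wild type DEN livers, 7.45 and 6.95 in heterozygous DEN, 7.34 to 7.82 in N750F DEN, and 7.56 and 7.59 in knockout-labelled livers. Its lowest arrays were wild type and heterozygous DEN array 4, which are also the low arrays for Col3a1, Lama4 and Mmp9. Over all genes tested these arrays held the lowest value for 17.4% and 14.7%. Whether the overlap is particular to endothelial genes was not tested. Of its 15 genes, Gpr182 was called lower than in untreated livers in wild type DEN (-2.24), heterozygous DEN (-1.76) and N750F DEN livers (-1.82), and Cdh5 in heterozygous DEN livers (-1.59). Oit3 was called higher in N750F DEN than in untreated livers (0.76). Stab1, a scavenger receptor of the sinusoidal lining, was called higher in N750F than in heterozygous livers (0.93), as Col14a1 and Col4a2 were. Against untreated livers 0.689% of all genes were called in wild type DEN, 1.4% in heterozygous DEN and 6.21% in N750F DEN livers. In N750F against heterozygous livers 1.64% were. No other of the 15 genes was called in any comparison. Each of these endothelial calls was lost without at least 1 array. Of the 13 fits that left out 1 array, Oit3 and Gpr182 in heterozygous DEN livers stayed called in 2. Cdh5 and Stab1 did so in 6, and Gpr182 in 10 for wild type DEN and 12 for N750F DEN livers.

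The 13 macrophage genes had means of 8.35 and 7.95 in untreated, 7.06 and 7.07 in wild type DEN livers, 7.41 and 7.21 in heterozygous DEN, 7.64 to 8.10 in N750F DEN, and 7.56 and 8.04 in knockout-labelled livers. Both wild type DEN arrays were the lowest of all, and the N750F arrays lay above every wild type and heterozygous DEN array. Against untreated livers Cd5l (-1.72), Csf1r (-2.03) and Lyz2 (-1.32) were called lower in wild type DEN, Cd5l (-1.51) in heterozygous DEN, and C1qc (-1.60) lower and Timd4 (1.24) higher in N750F DEN livers. Of all genes, 0.689%, 1.4% and 6.21% were called in these comparisons. Lyz2 (1.15) and Vsig4 (1.65) were called higher in N750F than in wild type livers after DEN, where 1.42% of all genes were called. Neither passed the threshold without wild type DEN array 4. That fit left 1 array in the group and lost its calls across all genes, so it cannot tell these genes from others. No other of the 13 genes was called in any comparison. Against untreated livers, Cd5l in both comparisons and Lyz2 stayed called in 4 of 13 fits that left out 1 array. Csf1r did so in 10 of 13, and C1qc and Timd4 in 11 of 13. The smooth muscle list of 9 genes stood at 7.46 in knockout-labelled array 2 and between 5.78 and 6.64 in the other arrays. In that array Des was 8.60 and Col6a1 7.57, the highest of the 13 arrays for both. Hepatocyte genes were at 10.99 to 11.47 in all arrays. They too were lower in array 4 than in array 3 of the wild type DEN (11.16 and 11.47) and heterozygous DEN livers (10.99 and 11.40).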

How the data were processed

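Per the labels' protocols, RNA of frozen liver was labelled after WT-Ovation Pico amplification. The authors deposited a linear intensity for each of 35556 probe sets on each of 13 Affymetrix arrays, and the submitters' processing notes name RMA and Affymetrix Expression Console 1.1 without a role. The genome build was not given in the sources used here. Median deposited intensities were 76.9 to 83.0 in the first run and 48.2 to 73.3 in the second, and the number of arrays limits the precision.

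Intensities were quantile-normalized, and 16 was added before log2, so changes of dim genes are understated. Of 23410 probe sets in GEO's annotation, 21789 had 1 symbol, 1621 had several (not used), and 12146 others were not listed. Symbols were updated through Entrez IDs for 21698. The probe set with the highest mean stood for a gene. Genes under the 25th percentile of the mean were left out. A limma 3.58.1 model (lmFit, eBayes; R 4.3.3) held the 5 groups and batch, with 7 residual degrees of freedom and 1 spread shared by all groups, and was tested on simulated data. All 78 array pairs differed, with correlations of 0.870 to 0.981.

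The genes and lists were chosen with earlier results of these data known. Named genes are those called, those with the highest mean level, fixed fibrillar, basement membrane, TIMP and MMP genes, and up to 4 called genes per further list and comparison. Col6a6, Col18a1, Col23a1, Mmp23, Mmp27 and the marker genes given by level were named after their values were seen. Alternatives were other offsets, scaling, filters, probe set rules, batch and sex terms, the replicate number as a block, and leaving out each array.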

Additional observations from a re-analysis of the deposited data

Results flagged for a closer look

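In the N750F DEN group, the only one with enough arrays for the check, 5 of 72 matrix genes had 1 array that stood apart from the other 4 by Dixon's criterion, which chance meets in about 1 of 20 groups. Mmp14 was at 6.24 in array 5, against 7.88 to 8.37 in the others. Mmp7 was at 7.03 in array 4, against 8.13 to 8.31. Col20a1 was at 5.23 in array 4, against 5.98 to 6.29, and Col9a2 was at 6.48 in array 4, against 6.85 to 6.96. Lama2 was high, at 7.06 in array 2, against 6.47 to 6.58. Array 4 belongs to the second run, as does array 5. None of these 5 genes was called in any comparison of the model over all arrays.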

How the results depend on the processing

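Under 23 alternatives (10 settings and 13 fits without 1 array) the 4 calls kept their direction wherever the gene was tested. Col14a1 stayed called in 17 of 23 against untreated and 19 of 23 against heterozygous, Col3a1 in 9 of 23 and Col4a2 in 4 of 22. With the replicate number as a block in place of batch, the counts of called matrix genes fell to 0 for heterozygous DEN against untreated, N750F against wild type, N750F against heterozygous and the F test, and Col14a1 had adjusted p of 0.539 and 0.0896, Col3a1 0.195 and Col4a2 0.404. Deviations of arrays with the same number correlated at -0.13 to 0.13 for numbers 1 and 2 and at 0.27 to 0.45 for 3 and 4, where number 3 lies in the first run and number 4 in the second in every group that has them, so number and run cannot be told apart there. The labels do not say that a number pairs arrays. Over all genes the block lowered the calls in these 4 tests from 210, 212, 245 and 432 to 9, 36, 114 and 86. In the first run alone, with 1 wild type DEN and 1 heterozygous array, no matrix gene passed in these tests. Calls over all genes nearly vanished there too, so that fit cannot decide whether the matrix calls hold. In N750F against wild type the count was 0 at offset 1, without a batch term and with the Y-linked covariate, and 2 at offset 50 and with median scaling (Col3a1 and Col1a2). In N750F against heterozygous it was 1 at offset 1, without a filter and without batch, and 0 with the Y-linked covariate. In N750F DEN against untreated it was 2 at offset 50 and at the 50th percentile filter, and in the F test 2 at offset 50. Leaving out each array gave counts of 0 to 3 for DEN in wild type, 0 to 1 for heterozygous against untreated, N750F against untreated and knockout-labelled against untreated, 0 to 2 for heterozygous and knockout-labelled against wild type, 0 to 4 for N750F against wild type, 0 to 2 for N750F against heterozygous, 0 to 0 for knockout-labelled against heterozygous and N750F against knockout-labelled, and 0 to 4 for the F test. The highest counts in the comparisons with wild type DEN, and in the F test, came without wild type DEN array 3, where calls over all genes rose as well. With groups of 2 arrays, the median 95% interval of a matrix gene reached 0.69 log2 to either side for DEN in wild type and 0.55 for N750F against heterozygous livers. These intervals are not adjusted for the number of genes, so a call needed a larger change still. Lamb1, at -1.15 for DEN in wild type, was not called (limma adjusted p = 0.163).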
